A study of Mus musculus with 12 samples.

Results

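Gpr143, Opn1sw and Pde6h are genes best known from pigment cells and from the cones of the retina. They are 3 of the 5764 genes in the deposited table, and their levels were followed across all 12 libraries of ribosome-bound RNA from the mouse hypothalamus. The genes were taken by name but chosen by values already seen: Gpr143 had been selected on its lower CPM in the SENS libraries, and Opn1sw and Pde6h were added with their CPM in both groups known. Differences between the groups are therefore given for these genes as a description, without a test.

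The mice carried the POMCRiboTag genotype, in which a ribosomal protein with an HA tag is made in cells that have expressed Cre recombinase, here in the lineage of neurons that make pro-opiomelanocortin (POMC). All mice went without food for 16 h and spent 1 h in the room beforehand, and all exposures fell around zeitgeber time 6 h, in the light phase. In the NEO group (6 libraries) wooden dowel pins in a wire mesh cage were then presented for 10 min, and in the SENS group (6 libraries) standard chow in the same kind of cage, so that food was sensed but not eaten. From dissections enriched for the arcuate nucleus, tagged ribosomes were captured with an anti-HA antibody, and cDNA was made from 0.5 ng of RNA. Both groups share the genotype, the fast and the pull-down, and no library without pull-down was among the 12. The sources used here give neither the age and sex of the mice nor whether each library is a separate mouse, so the spread between libraries may be partly technical.

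Gpr143 encodes a G protein-coupled receptor that sits in the membrane of melanosomes, the pigment organelles of melanocytes and of the retinal pigment epithelium; loss of its human counterpart causes ocular albinism. Opn1sw encodes the cone opsin that absorbs short-wavelength light. Light-activated opsin switches on transducin, and transducin frees a phosphodiesterase from its inhibitory subunit, so that cyclic GMP falls and the channels of the photoreceptor close. Pde6h encodes that inhibitory subunit in cones. None of these genes is a usual marker of POMC neurons.

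In the RefSeq annotation of GRCm38.p6, Gpr143 spans chromosome X from 152781921 to 152808651, Opn1sw spans chromosome 6 from 29376671 to 29380513 on the minus strand, and Pde6h spans chromosome 6 from 136952218 to 136963485 on the plus strand. The 5 last bases of Opn1sw overlap the end of Calu, which lies on the opposite strand and is not analysed here, and use of strand in counting is not given in the sources used here. No annotated gene overlaps Gpr143, whose neighbours are Shroom2 (11132 bases away) and the pseudogene Rpl7a-ps12 (100078 bases), or Pde6h, whose neighbours are Arhgdib (10318 bases) and Gm30055 (17328 bases). All 12 values of each of the 3 genes, zeros included, were whole reads within 0.005 reads, so none carried the fractional reads seen for some other genes. What makes reads fractional is not given in the sources used here.

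CRX, a homeobox factor of photoreceptors and of the pineal gland, is known to switch on cone and rod genes through sites with the core TAATCC. For each cone gene the 250 bases before the transcript start in the RefSeq promoter table are shown because the table also holds Crx itself, named here after its values were seen. The sequences come from RefSeq (GRCm38.p6) and are written 5′ to 3′ on the strand of the gene, chr6:29380514-29380763 for Opn1sw (minus) and chr6:136954273-136954522 for Pde6h (plus). The transcript start used for Opn1sw is the start of the gene. That used for Pde6h, at 136954523, lies 2305 bases inside the annotated span of the gene, so its window does not cover the bases before the outermost start. Capitals mark the shorter core TAATC or its reverse complement GATTA.
Opn1sw: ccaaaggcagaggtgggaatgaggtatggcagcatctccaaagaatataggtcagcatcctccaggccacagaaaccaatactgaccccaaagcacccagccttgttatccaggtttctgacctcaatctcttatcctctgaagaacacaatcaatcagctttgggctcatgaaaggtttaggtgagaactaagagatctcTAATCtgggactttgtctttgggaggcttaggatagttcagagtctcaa
Pde6h: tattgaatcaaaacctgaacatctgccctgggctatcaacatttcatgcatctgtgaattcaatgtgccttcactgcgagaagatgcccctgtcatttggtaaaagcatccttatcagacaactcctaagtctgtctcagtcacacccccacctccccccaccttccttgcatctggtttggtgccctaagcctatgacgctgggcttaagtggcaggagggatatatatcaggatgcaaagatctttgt
The Opn1sw window held 1 match to TAATC, which begins 49 bases before that start, and the Pde6h window held none. Neither window held TAATCC or its reverse complement GGATTA. Of 32851 RefSeq promoter windows of the same length, 6.25% held TAATCC and 19.8% held TAATC, in each case on either strand; every TAATCC match is also a TAATC match. Crx had 0.4 reads in all 12 libraries together, 0.2 in NEO 5 and 0.2 in SENS 2.

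Values are in CPM, the authors' read counts divided by the total over the genes of this table, and are also given as reads, where 1 read is the step between the values of a library. The NEO libraries held between 6901 and 11139 reads in these genes, and the SENS libraries between 8619 and 18299, the most in SENS 6. Of the 5764 genes, between 1419 (NEO 4) and 2211 (NEO 2) were above 0 in a NEO library. In a SENS library between 1589 (SENS 6) and 2402 (SENS 3) were above 0, so most genes were at 0 in each library. No gene of the table had a mean above 14.25 reads per library, and the median gene had 9 reads over all 12 libraries. The table thus holds only genes with few reads, and a CPM here is not a share of all reads of a library. The full depth of the libraries is unknown. Where a library was at 0, up to 3 reads remain possible, which is between 164 CPM (SENS 6) and 435 CPM (NEO 5), and covers counting error only. The labelled cell type could not be checked: none of the 35 listed markers of POMC and AgRP neurons, tanycytes, glia, endothelium and choroid plexus is analysed here. Of 7 pituitary markers 6 were in the table, with a summed level between 380 and 2797 CPM in NEO and between 64.1 and 9796 CPM in SENS; their part in the results below was not tested.

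Gpr143 values were lower in the SENS libraries than in the NEO libraries. The NEO libraries held 17, 21, 13, 27, 14 and 2 reads of Gpr143 (replicates 1 to 6), and the SENS libraries 5, 0, 0, 11, 2 and 0. It was thus found in all 6 NEO libraries but in 3 of 6 SENS libraries, and the groups overlapped through NEO 6, which lay far below the other NEO libraries.

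In CPM, Gpr143 ranged from 258 to 3424 in NEO, with a median of 1852, and from 0 to 1024 in SENS, with a median of 83.1. Its means were 1846 ± 1008 and 295 ± 422 CPM (SD, n = 6 each), and the NEO mean was 6.26 times the SENS mean. Its 94 reads of 51054 in NEO and 18 of 78624 in SENS gave pooled levels of 1841 and 229 CPM. The log2 fold change of Gpr143 was −6.10 (SE 1.61) on the log2(CPM + 1) scale, which is larger than the ratio of the means because 3 libraries lay at 0. In bulk samples such as these, fewer cells of a type and less RNA per cell cannot be told apart.

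The lower level of Gpr143 in SENS did not rest on 1 library. This and the values below describe the same libraries that the gene was chosen on, and give no independent support. Without NEO 6 the lowest NEO library (1661 CPM) lay above the highest SENS library (1024 CPM), a pattern shown by 6 of 5141 genes (0.117%), from which nothing is read since the gene had been noticed for this contrast. Leaving out 1 library at a time kept the difference of the means between −1868 and −1235 CPM. The label numbers were cut here, at gaps chosen for this report, into 3 ranges with as many NEO as SENS libraries in each. The SENS mean was lower in each range. The difference was −1081 CPM for numbers 1046 to 1050 (1 library per group), −2034 CPM for 1062 to 1074 (3 per group) and −1060 CPM for 1103 to 1116 (2 per group). The labels give neither these ranges nor what the numbers stand for.

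**Figure D1:**
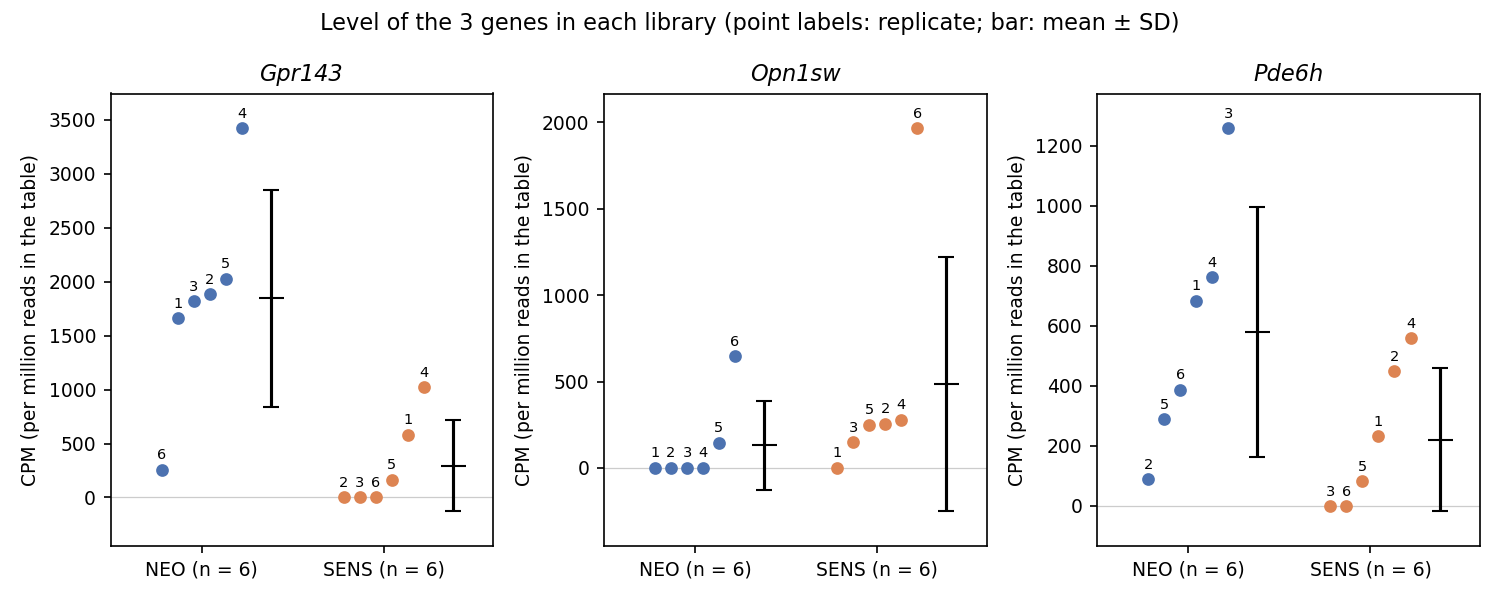
Level of Gpr143, Opn1sw and Pde6h in each library, in CPM on a linear axis, with 6 NEO libraries in blue and 6 SENS libraries in orange; numbers give the replicate and bars the mean ± SD. Gpr143 lies at 1661 CPM or above in all NEO libraries but NEO 6, and the mean of Opn1sw in SENS is carried by SENS 6 at 1967 CPM.

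Opn1sw showed the opposite order, carried largely by a single library. The NEO libraries held 0, 0, 0, 0, 1 and 5 reads of Opn1sw, and the SENS libraries 0, 4, 2, 3, 3 and 36. It was above 0 in 2 NEO and 5 SENS libraries, and the groups overlapped: NEO 6 lay above every SENS library except SENS 6. The zeros of NEO 1 to NEO 4 allow between 269 CPM (NEO 2) and 420 CPM (NEO 3). SENS 2 to SENS 5 lay between 150 and 279 CPM.

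The means of Opn1sw in NEO and SENS were 132 ± 258 and 484 ± 734 CPM (SD, n = 6 each), with medians of 0 and 253 CPM. Without SENS 6 the SENS mean became 187 ± 116 CPM (SD, n = 5), and the difference fell from 352 to 55.3 CPM. The log2 fold change was 4.29 (SE 2.67) and 3.51 (SE 2.94) without SENS 6. These values depend on the libraries at 0, and with a pseudocount of 50 the value over all libraries was 1.58. Opn1sw was above 0 in all 4 libraries numbered 1103 to 1116, in 3 of the 6 numbered 1062 to 1074 (the SENS ones), and in neither library of the first range. Within these ranges the difference was 713, 229 and 0 CPM.

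SENS 6 held 36 of the 54 Opn1sw reads (66.7%), while it held 14.1% of all reads of the table. Of 1574 genes with at least 30 reads, 6.54% had as large a share in 1 library, and the median share was 29.4%. The share of the highest library was 24.1% for Gpr143 (NEO 4) and 20.5% for Pde6h (NEO 3), both below that median. SENS 6, the library with the most reads, was the highest library for 26.3% of those genes, more than any other library was.

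**Figure D2:**
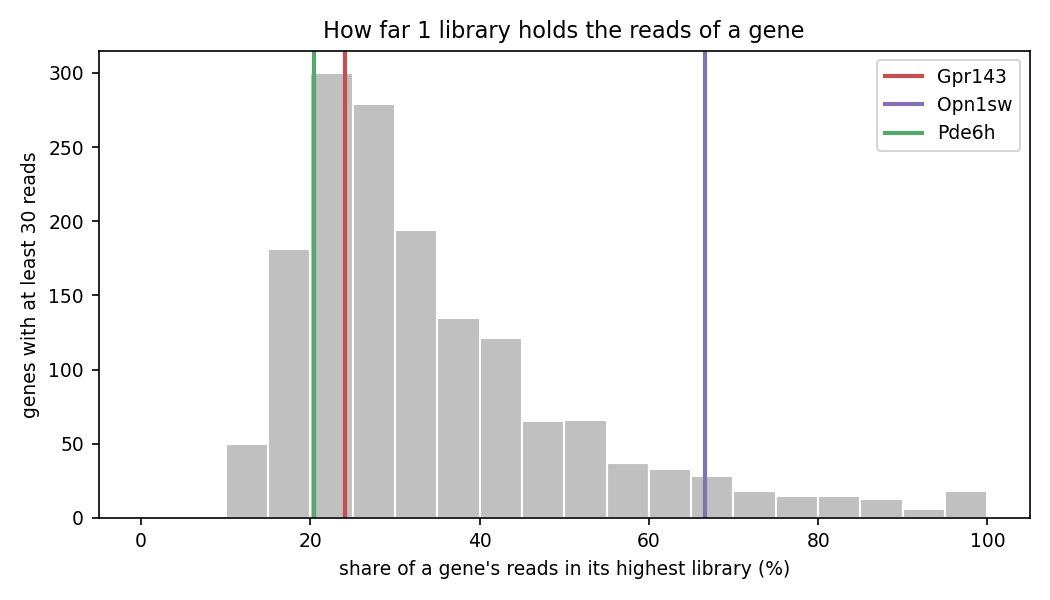
Histogram of the share of a gene's reads that lies in its highest library (x axis, in %), over the 1574 genes with at least 30 reads (y axis, number of genes in bins of 5 percentage points). The lines mark Pde6h (20.5%), Gpr143 (24.1%) and Opn1sw (66.7%), the last in the long upper tail.

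Pde6h was spread more evenly. The NEO libraries held 7, 1, 9, 6, 2 and 3 reads of Pde6h, and the SENS libraries 2, 7, 0, 6, 1 and 0. It was above 0 in all 6 NEO and 4 SENS libraries, with much overlap between the groups.

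Pde6h ranged from 89.8 to 1259 CPM in NEO (median 536) and from 0 to 559 CPM in SENS (median 158). Its means were 578 ± 416 and 220 ± 238 CPM (SD, n = 6 each), and its pooled level was 2.70-fold higher in NEO. The log2 fold change was −3.40 (SE 1.76). The difference of the means of −358 CPM became −222 CPM without NEO 3. It was −452, −367 and −297 CPM for label numbers 1046 to 1050, 1062 to 1074 and 1103 to 1116.

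No gene of the table passed in the comparison of SENS with NEO, these 3 among them. The fit with limma across 5141 genes called 0 genes at a Benjamini-Hochberg adjusted p under 0.05 (0%), and 189 at an unadjusted p under 0.05, 94 higher in SENS (1.83%) and 95 lower (1.85%). Over all genes tested the median log2 fold change was 0.39 with a median SE of 1.82, so the values of Gpr143 and Pde6h lie further from the bulk of the genes, and that of Opn1sw nearer to it, than their distance from 0. Presence in all 6 NEO libraries and at most 3 SENS libraries, as for Gpr143, was shown by 29 of the 5141 genes (0.564%). Presence in at least 5 SENS and at most 2 NEO libraries, as for Opn1sw, was shown by 77 genes (1.50%). Presence in all 6 NEO and at most 4 SENS libraries, which Pde6h and Gpr143 both show, was found for 81 genes (1.58%). Groups that did not overlap, as for none of the 3, were found for 4 genes with every NEO library above every SENS library (0.0778%) and for 1 gene the other way (0.0195%). These shares are background; the genes were chosen with this contrast in view.

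**Figure D3:**
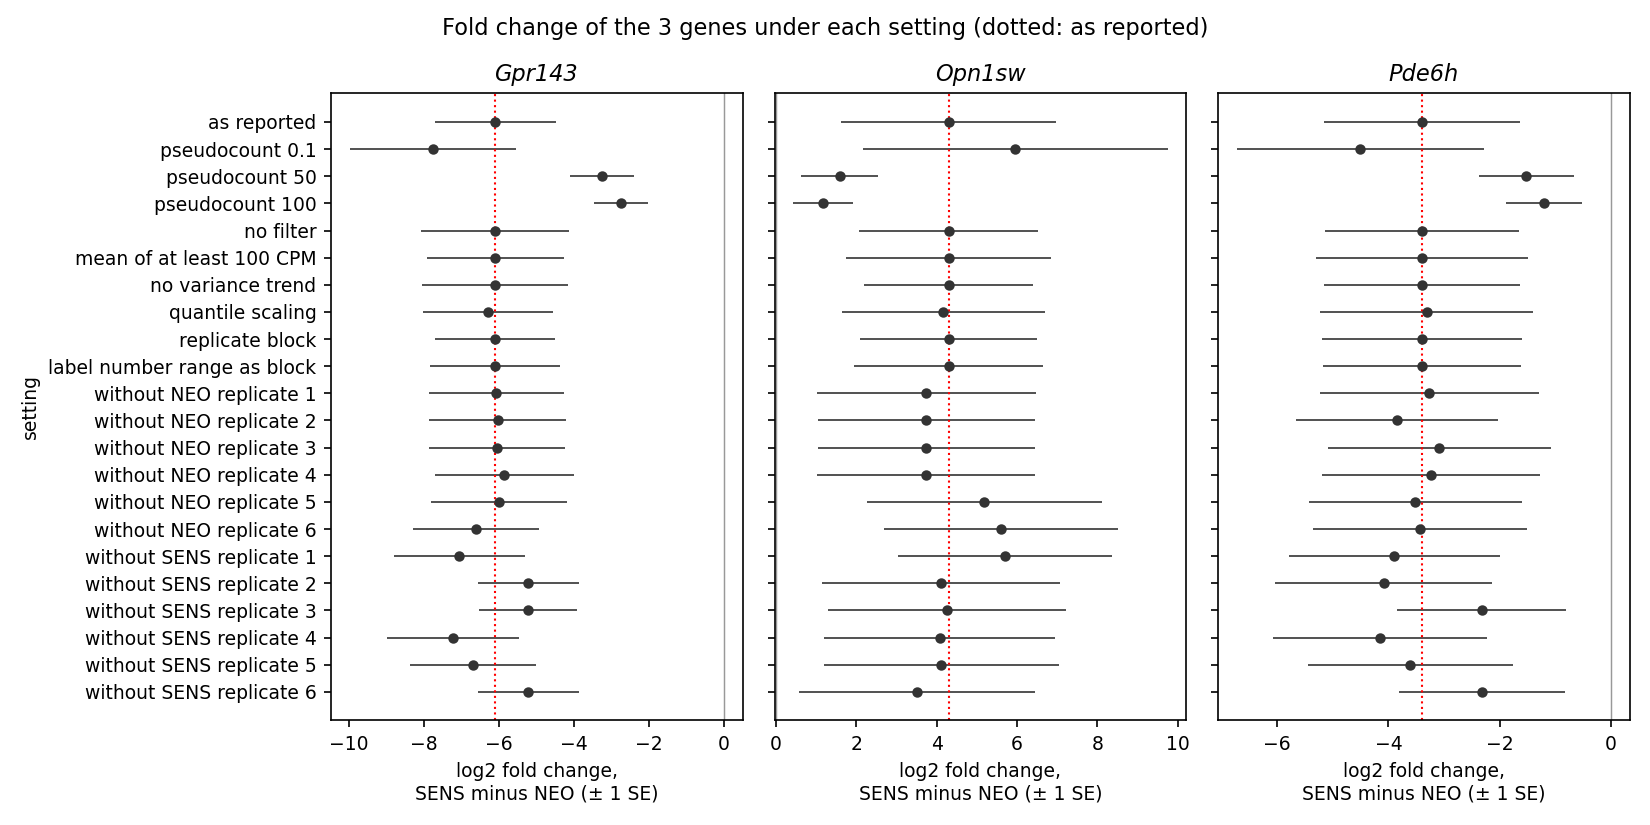
Log2 fold change of each gene (SENS minus NEO, x axis, bars ± 1 SE) as reported and under 21 other settings (y axis), with a dotted line at the reported value and a grey line at 0. Every estimate keeps its side of 0, though the other filters, the variance model and the blocks could not move it. The larger pseudocounts of 50 and 100 shrink all 3.

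Of the 12 libraries, Gpr143 was above 0 in 9, Pde6h in 10 and Opn1sw in 7, so many shared libraries follow from these numbers alone. Whether the overlaps differ from those of other genes was not tested. Pde6h was present in each of the 9 libraries with Gpr143 reads, 6 NEO and 3 SENS, and in 1 more, SENS 2. Opn1sw shared 4 libraries with Gpr143 (NEO 5, NEO 6, SENS 4 and SENS 5) and 5 with Pde6h. SENS 3 and SENS 6 held Opn1sw alone of the 3 genes, and no library lacked all 3. In SENS 6, 36 reads of Opn1sw stood beside 0 of Gpr143 and 0 of Pde6h.

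Other pigment and cone genes were then read from lists of 31 pigment cell and melanosome genes and 21 cone phototransduction genes. Their reads are given as NEO and SENS sums, which are not scaled: equal reads mean a lower level in SENS, since its libraries held 78624 reads in the table against 51054 in NEO. Of the pigment list 10 were measured, all of them passed the filter of a mean of at least 1 CPM, and limma called 0 in either direction (0 at an unadjusted p under 0.05). Their log2 fold changes were above 0 for 7 and below 0 for 3, with a median of 1.45 against 0.39 over all genes tested, while that of Gpr143 was −6.10. Oca2, the melanosome membrane protein behind the pink-eyed dilution coat colour, had 29 reads in NEO against 66 in SENS. Tyrp1, a melanin synthesis enzyme, had 13.5 reads in NEO, all in NEO 4, and 64 in SENS, of which SENS 6 held 55. Pmel, which forms the fibrils of the melanosome, had 10 reads in NEO and 39 in SENS and was present in all 6 SENS libraries. Trpm1, a channel of melanocytes and retinal bipolar cells, had 17 and 16 reads. Its log2 fold change was 0.61, although its pooled level was lower in SENS (333 CPM in NEO and 204 CPM in SENS).

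Gpr143 and the summed pigment list did not share their highest or lowest libraries. Single genes of the list varied: where Gpr143 was at 0 (SENS 2, SENS 3 and SENS 6), Dct was at 0 too, while Pmel was above 0. NEO 3 held 13 reads of Gpr143 and none of the 10 listed genes, and NEO 4, with 27 reads the highest for Gpr143, held Tyrp1 and a single read of Pmel. SENS 6 held 102 reads of the list, the most of any library, and none of Gpr143. Other libraries held both: NEO 2, with 21 reads of Gpr143, had the highest list sum of the NEO group (2424 CPM), and NEO 1 (17 reads) and NEO 5 (14 reads) followed with 2267 and 2174 CPM. Tyr, the rate-limiting enzyme of melanin synthesis, and Dct, another enzyme of that pathway, were named after their values were seen. Tyr was at 0 in 9 of 12 libraries, with 5 of its 5.4 reads in SENS 2, and Dct was at 0 in 9 of 12, with 17 of its 21 reads in SENS 5. The summed level of the list ranged from 0 to 2424 CPM in NEO and from 1125 to 5585 CPM in SENS, with means of 1730 ± 892 and 2688 ± 1515 CPM (SD, n = 6 each). The part of pigment cells in the Gpr143 values was not tested.

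**Figure D4:**
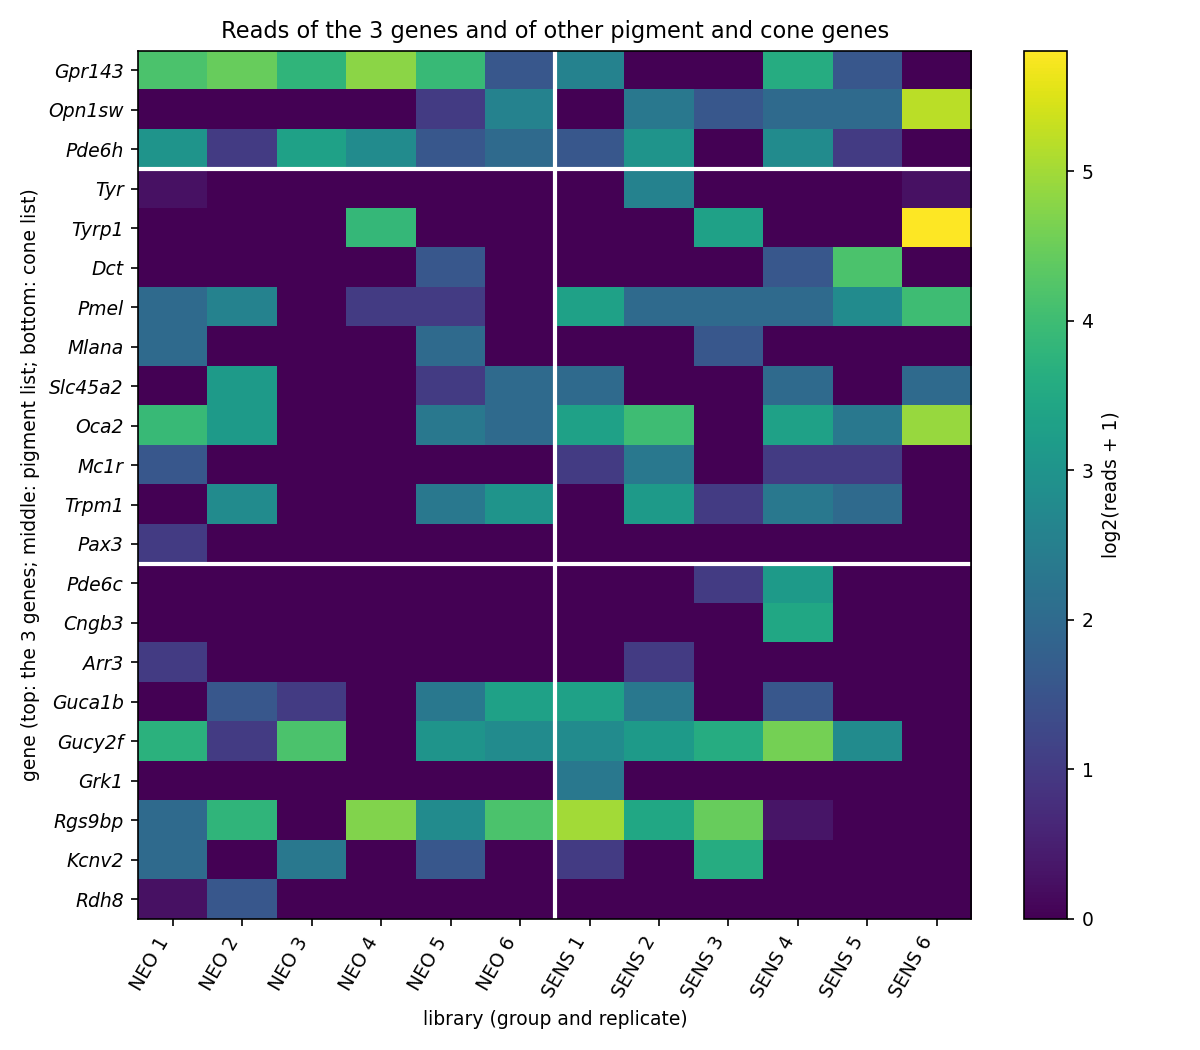
Reads of the 3 genes (top), of 10 measured pigment genes (middle) and of 9 measured cone genes (bottom) in each of the 12 libraries (x axis), coloured by log2(reads + 1). The NEO 3 column is dark over the whole pigment list although Gpr143 has 13 reads, and the SENS 6 column is dark over the whole cone list although Opn1sw has 36 reads.

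Of the cone list 9 genes were measured and all passed the filter, and limma called 0 (0 at an unadjusted p under 0.05). Their log2 fold changes were above 0 for 4 and below 0 for 5, with a median of −0.10. Rgs9bp, which anchors the protein that turns transducin off, had 64 reads in NEO and 62.25 in SENS. Its pooled levels were 1254 and 792 CPM, with a log2 fold change of −2.42. Gucy2f, a guanylate cyclase that restores cyclic GMP, had 43 and 54 reads, or pooled levels of 842 and 687 CPM, with a log2 fold change of 0.11. Guca1b, an activator of that cyclase, had 16 and 15 reads (313 and 191 CPM). Kcnv2, a potassium channel subunit of photoreceptors, had 9 and 12 (176 and 153 CPM).

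Opn1sw and the rest of the cone list peaked in different libraries. In SENS 6, where Opn1sw was highest, all 9 listed cone genes were at 0, and each of these zeros allows up to 164 CPM. Only 1589 of the 5764 genes of the table were above 0 in SENS 6, the fewest of any SENS library despite its depth. In SENS 1, where Opn1sw was at 0, the list held 51 reads, the most of any library, 31 of them from Rgs9bp. Pde6c, the catalytic partner of Pde6h in cones, and Cngb3, a subunit of the cone channel, were named after their values were seen. Pde6c had 9 reads in all, 8 of them in SENS 4, and Cngb3 had 10, all in SENS 4, where Opn1sw had 3 reads and Pde6h 6. Both were at 0 in every NEO library. The summed level of the list ranged from 1616 to 4132 CPM in NEO and from 0 to 5917 CPM in SENS, with means of 2771 ± 921 and 2536 ± 2278 CPM (SD, n = 6 each).

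Rod and general photoreceptor genes were present at like low levels. Of 28 listed genes 15 were measured, 2 of them (Cnga1 and Nr2e3) at 0 in every library, and 13 passed the filter. Limma called 0 of these (0 at an unadjusted p under 0.05), with 4 log2 fold changes above 0, 9 below 0 and a median of −0.23. Pde6g, the rod counterpart of Pde6h, had 19 reads in each group (372 CPM in NEO and 242 CPM in SENS, pooled) and was above 0 in 4 libraries of each. Rp1l1, a protein of the photoreceptor axoneme, had 24 and 28 reads in NEO and SENS (470 and 356 CPM), Mpp4, a scaffold of the photoreceptor synapse, 24 and 24 (470 and 305 CPM), and Impg2, a proteoglycan of the matrix around photoreceptors, 21 and 18. The summed level of the measured genes was 2365 ± 442 CPM in the NEO libraries and 1820 ± 723 CPM in the SENS libraries (SD, n = 6 each).

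Among other opsins, Opn4, the melanopsin of light-sensitive ganglion cells, had 28 reads in NEO and 19 in SENS, above 0 in 5 libraries of each group. Opn5, an ultraviolet-sensitive opsin that is also known from the hypothalamus, had 1 read in NEO and none in SENS. Rrh, peropsin of the pigment epithelium, had 3 and 7 reads. None of these 3 was called. Of 12 genes of the retinal pigment epithelium and the retinoid cycle only Rpe65, the isomerase that remakes the chromophore of opsins, was in the table, and it was at 0 in all 12 libraries (0 of 129678 reads, which allows up to 23.1 CPM). Of 10 bipolar cell genes 4 were measured and none called. Grm6, the glutamate receptor of ON bipolar cells, had 1 read in SENS 3. Lrit3, which works with that receptor, had 10 reads in NEO and 19 in SENS, and the homeobox gene Vsx1 had 26 reads, all in SENS and 20 of these in SENS 2.

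Lens genes were the largest measured group, 16 of 24, with 7 log2 fold changes above 0, 9 below 0 and a median of −0.89; limma called 0, and 1 had an unadjusted p under 0.05. That gene was Pitx3, a homeobox factor of the developing lens whose difference was known when the list was written; it had 81 reads in NEO and 18 in SENS and, as for Gpr143, lay above 0 in 6 NEO and 3 SENS libraries. Crybb3, a lens crystallin, had 43 and 51 reads (842 and 649 CPM, pooled) and was present in all 12 libraries. Cryaa, the α-crystallin of lens, had 16 and 66 reads, with 55 in SENS 6, and the crystallin gene Cryba1 31 and 13. Among pineal genes (5 of 8 measured, 4 tested, none called), Aanat, the enzyme that sets the rhythm of melatonin synthesis, had 27 and 63 reads. The log2 fold change of Aanat was −0.10, the other way from its read sums. The melatonin receptor gene Mtnr1a had 18 and 45 reads, 40 of them in SENS 6, Asmt, which completes melatonin, had 3 and 3 (58.8 and 38.2 CPM), Tph1, which starts it, 4 and 6 (78.3 and 76.3 CPM), and Lhx4 none. Pnmt, the adrenaline synthesis enzyme and the one measured gene of 7 for catecholamine and L-DOPA synthesis, had 9 reads in NEO against 35 in SENS, with 22 in SENS 6. Its log2 fold change was −0.82, the other way from the read sums, and it was above 0 in 3 NEO and 2 SENS libraries. It was not called.

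Across the 9 lists, 64 of 146 genes were measured and 60 tested, 27 with log2 fold changes above 0 and 33 below; limma called 0, and 1 had an unadjusted p under 0.05.

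**Figure D5:**
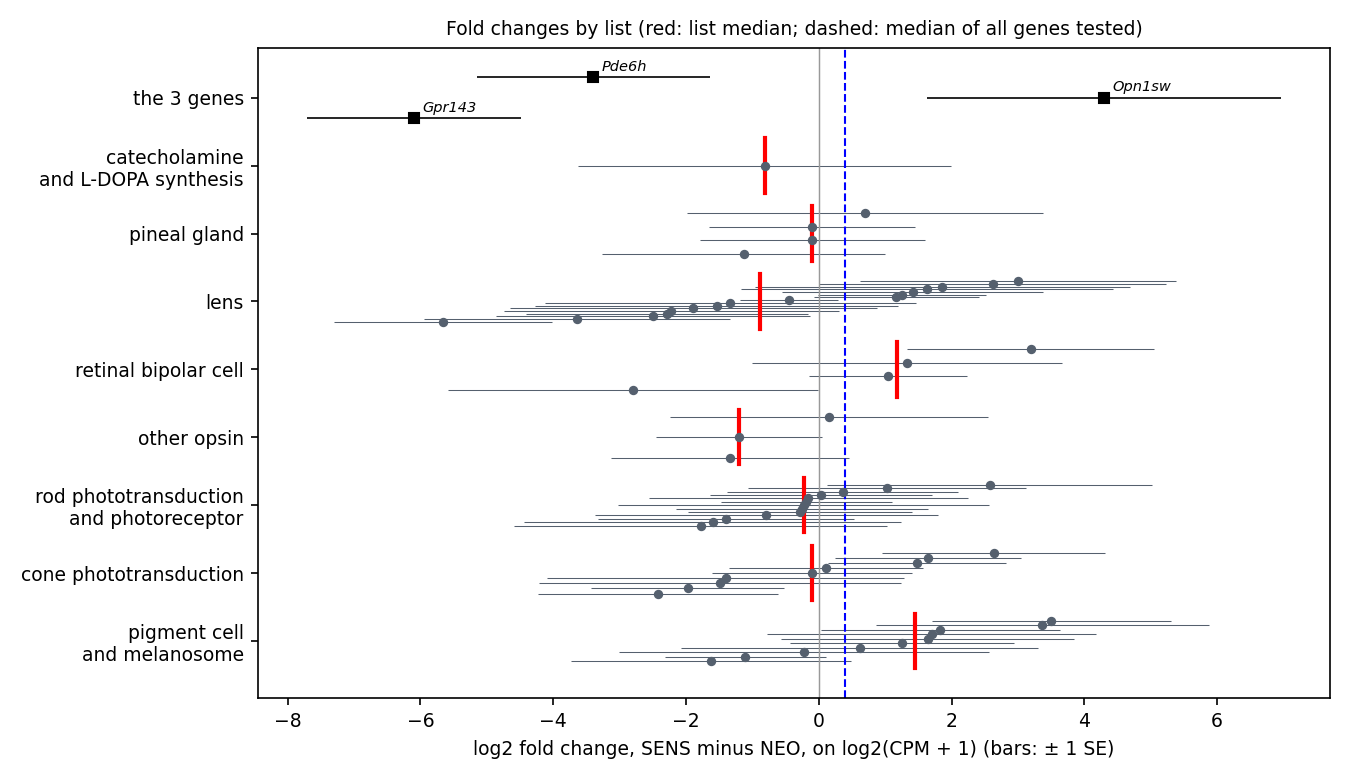
Log2 fold change of each tested gene (x axis, SENS minus NEO on the log2(CPM + 1) scale, bars ± 1 SE) by gene list (y axis), with Gpr143, Opn1sw and Pde6h as black squares. Red bars mark list medians and the dashed line the median of all genes tested, 0.39. Gpr143 lies below every listed gene and Opn1sw above every one, but both were chosen with their values known.

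The genes whose levels followed each of the 3 most closely were taken by Spearman's rho over all 12 libraries, among genes above 0 in at least 6 libraries (1861 candidates). Since the libraries share their groups and depth, the correlation of log2(CPM + 1) after subtraction of the group means is given as well, and all these values are descriptions. For Gpr143 they were the long noncoding RNA gene 1700122H20Rik (rho = 0.93, Pearson r = 0.84 after subtraction), Rpl3l, a ribosomal protein paralog of striated muscle (0.86 and 0.56), and Cacna1f, a calcium channel gene known from photoreceptor synapses (0.82 and 0.41). For Opn1sw they were the long noncoding RNA genes Gm29683 (0.86 and 0.96) and Gm33727 (0.85 and 0.68) and the collagen gene Col15a1 (0.84 and 0.78). For Pde6h those reported here were the zinc finger gene Zfp985 (0.90 and 0.73) and the pseudogene Mfsd4b3-ps (0.86 and 0.57). Among themselves, Gpr143 and Pde6h had a rho of 0.57 (0.61 after subtraction), Gpr143 and Opn1sw −0.68 (−0.47), and the cone genes Opn1sw and Pde6h −0.39 (−0.29).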

How the data were processed

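The 6 NEO and 6 SENS libraries were grouped by their titles. The authors deposited 1 table of CPM values for 5764 genes, each column summing to between 999936 and 1000000. Per the submitters' processing notes the tools were FastQC, HISAT2, featureCounts and edgeR (no versions or roles) and the builds GRCm38 and mm10; filters and strand: not given in the sources used here. The most frequent value above 0 in a column was taken as 1 read; 81.2% of values above 0 were then whole (tolerance 0.005 reads), too few for a count model.

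SENS was compared with NEO by limma 3.58.1 (R 4.3.3, variance trend, two-sided) on log2(CPM + 1) over the 5141 genes whose mean reached 1 CPM. Genes with a Benjamini-Hochberg adjusted p under 0.05 were called, with no covariate. A run on simulated data was judged only by the sign of the fold changes and does not bear on the number of genes called. Tables and figures were made with Python 3.11.15, pandas 2.3.3 and matplotlib 3.10.9. A RefSeq table of GRCm38.p6 held 5728 of the symbols; its promoter table matched Opn1sw and Pde6h. The genes, lists and tests were chosen with earlier results of these data known. Named list genes are all measured ones for lists with up to 6, otherwise the 4 with most reads; the 3 most like genes were taken per gene; a few genes these rules took are not reported here and were not replaced. Alternatives were other pseudocounts, filters, variance models, scaling and blocks, and each library left out.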

Additional observations from a re-analysis of the deposited data

Results flagged for a closer look

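In 25 of 82 groups of 6 values examined, 1 library stood apart from the other 5, by the gap to its nearest neighbour relative to the range (Dixon's test). The cut-off marks about 1 in 20 groups of independent, normally distributed values. These are low counts with many zeros, and the list sums reuse the same genes, so no excess over chance can be read from the count. A gene with reads in 1 library is always marked. For Opn1sw these were NEO 6 at 646 CPM (next 145) and SENS 6 at 1967 CPM (next 279).

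SENS 6 also stood apart for Tyrp1 (3006 CPM), Cryaa (3006 CPM), Mtnr1a (2186 CPM), and the summed pigment list (5585 CPM) and pineal list (3771 CPM). NEO 6 stood apart for Mpp4 (1937 CPM), Lrit3 (1291 CPM), Cryaa (1937 CPM) and the summed bipolar cell list (1937 CPM). The summed pigment list was 0 CPM in NEO 3.

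The remaining cases were Tyrp1 in NEO 4 (1712 CPM), Guca1b in SENS 1 (1044 CPM), Kcnv2 in SENS 3 (825 CPM) and Impg2 in SENS 3 (1050 CPM, 14 reads). Rrh was high in SENS 5 (415 CPM), Lrit3 in SENS 2 (962 CPM) and Vsx1 in SENS 2 (1283 CPM). At 1 to 6 reads stood Opn5 in NEO 5 (145 CPM), Grm6 in SENS 3 (75.0 CPM), Asmt in NEO 1 (293 CPM) and SENS 2 (192 CPM), and Tph1 in NEO 5 (435 CPM) and SENS 5 (498 CPM).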

How the results depend on the processing

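Limma called 0 genes under each of the 21 alternative settings, with a smallest adjusted p of 0.177 (without SENS 3). The log2 fold changes of Gpr143, Opn1sw and Pde6h kept their sign in all 21. The other filters, the fit without a variance trend and the blocks could not move them, since these settings change only the SE. With pseudocounts of 0.1, 50 and 100 they were −7.76, −3.25 and −2.74 for Gpr143, 5.95, 1.58 and 1.18 for Opn1sw, and −4.50, −1.52 and −1.21 for Pde6h. With each library left out they lay between −7.21 and −5.21 for Gpr143, 3.51 and 5.70 for Opn1sw, and −4.15 and −2.32 for Pde6h. Same-numbered libraries showed little likeness (correlations of their deviations between −0.032 and 0.082), but values with this few reads cannot exclude a pairing. With the replicate number as a block only the SE could change. The log2 fold changes were −6.10 (SE 1.59) for Gpr143, 4.29 (SE 2.20) for Opn1sw and −3.40 (SE 1.80) for Pde6h. That fit called 0 genes. The levels rest on 112, 54 and 44 reads in all.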

Other observations

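Some photoreceptor and pituitary genes, picked after their values were seen, had most of their reads in SENS 4, which held 8.28% of all reads of the table: Cngb3 (10 of 10), Pde6c (8 of 9), the prolactin gene Prl (52 of 53) and the growth hormone gene Gh (33 of 36). Other genes of the same lists did not. SENS 4 held 23 of 97 reads of Gucy2f, 0.25 of 126.25 of Rgs9bp and none of Kcnv2 or Grk1. Among pituitary genes it held 15 of 61 reads of Tshb, whose highest library was SENS 3 (31 reads), 5 of 68 of Lhb and none of Fshb. Gpr143 had 11 reads in SENS 4, its highest SENS library.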
